A study of Mus musculus with 36 samples.

Results

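The laminin chains Lama2, Lama4, Lama5, Lamb1, Lamb2 and Lamc1 and the integrin subunits Itga5, Itga6, Itga7 and Itgb1 were followed in the mouse heart from early organ formation to old age. Their rows were taken by gene symbol from the array table, which gave 10 genes with 26 probe sets of 20701 genes and 45101 probe sets in all. Heart RNA of OF1 (Oncins France 1) mice was hybridized to 36 one-colour arrays, 3 at each of 12 stages. They cover 10 consecutive embryonic days, the first E10.5 and the last E19.5, and adults that were young (10 weeks) or old. The series record gives the old animals as 14 months of age and the methods as younger. All 3 arrays of E10.5 and of E11.5 came from hearts of mixed sex, and every later stage had 1 female, 1 male and 1 mixed sample. No allele or agent was applied at any stage, and the samples are pieces of a whole organ, in which fewer cells of a type and less RNA per cell cannot be told apart.

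Laminins are trimers of an alpha, a beta and a gamma chain that polymerize into the sheet of the basement membrane around cardiomyocytes, smooth muscle cells and capillaries. Chains built on Lama2 surround muscle fibres, whereas chains built on Lama4 and Lama5 are typical of vessel walls, and Lamb1 and Lamb2 are alternative beta chains that pair with Lamc1. Integrins are receptors of an alpha and a beta subunit that tie the cell surface to this matrix. Itgb1 is the common beta subunit, Itga6 and Itga7 make it a laminin receptor, and Itga5 makes it a receptor for fibronectin.

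All values are log2 intensities after robust multi-array averaging (RMA), and a gene was read from the probe set with its highest mean, the others being given beside it. Lama2, Lamb2 and Itga7 had only 1 probe set each, so no second reading of their changes exists here. A difference was called changed at an adjusted p under 0.05 in a limma model over all arrays and all probe sets. Levels of different probe sets are not comparable, so only changes are set side by side. Of the heart markers, 5 of 5 measured cardiomyocyte genes had a stage mean above 5, and none of 4 liver and none of 3 skeletal muscle genes did, although the extraction note in the labels names liver. Of 2 measured lung genes 1 had a stage mean above 5, and both were called higher at E19.5 than at E10.5. The mean level of 18 hybridization control probe sets differed between stages, from 9.90 ± 0.39 (SD, n = 3) at E10.5 to 11.16 ± 0.21 at E19.5, 12.17 ± 0.22 in young adults and 11.37 ± 0.20 in old adults. The poly(A) control level differed between stages too, with arrays at 5.94, 5.93 and 6.86 at E10.5 and 8.98, 8.52 and 9.17 in young adults. The mixed arrays of E17.5, E18.5 and E19.5 had poly(A) control levels of 8.50 to 8.95 against 7.35 to 7.84 on the other 6 arrays of these days, and several members lay apart on them. For the members' stage differences described below, on the probe set read, dependence on the hybridization level and on these 3 mixed arrays is given. Markers, related genes and the members' other probe sets were not examined for either. Pair differences were not examined with the hybridization level as a covariate. No model with the poly(A) level was fitted, and leaving out the 3 mixed arrays does not remove its difference between stages. The part of these control levels and arrays in the results was not tested. The median of genes with a stage mean above 5 differed by -0.21 between E19.5 and E10.5 and by -0.10 between young adult and E19.5, while that of all genes differed by 0.16 and 0.05.

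Between E10.5 and E19.5, 5 of the 10 members were called higher on the probe set read (Lama2, Lama5, Lamb2, Itga7 and Itgb1), 1 lower (Itga6) and 4 did not pass the test. For Itgb1 a second probe set was called lower. Over all genes 26.2% were called higher and 23.6% lower in this comparison, and among genes with a stage mean above 5 these shares were 24.1% and 39.0%. The median difference of the members was 0.33. From E19.5 to young adult, 3 members rose (Lama5, Lamb2 and Itga7) and 3 fell (Lamb1, Lamc1 and Itga5), with 14.7% of all genes called higher and 17.0% lower (17.3% and 28.9% of genes above 5). Between young and old adults 1 member, Itga6, was called, and it was higher; 4.46% of all genes were higher and 3.13% lower. Without the 3 late mixed arrays, a setting chosen after seeing the data, the first 2 comparisons again gave 5 members higher with 1 lower and 3 higher with 3 lower. With the hybridization control level as a covariate they gave 3 higher with 1 lower and 2 higher with 2 lower.

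**Figure D1:**
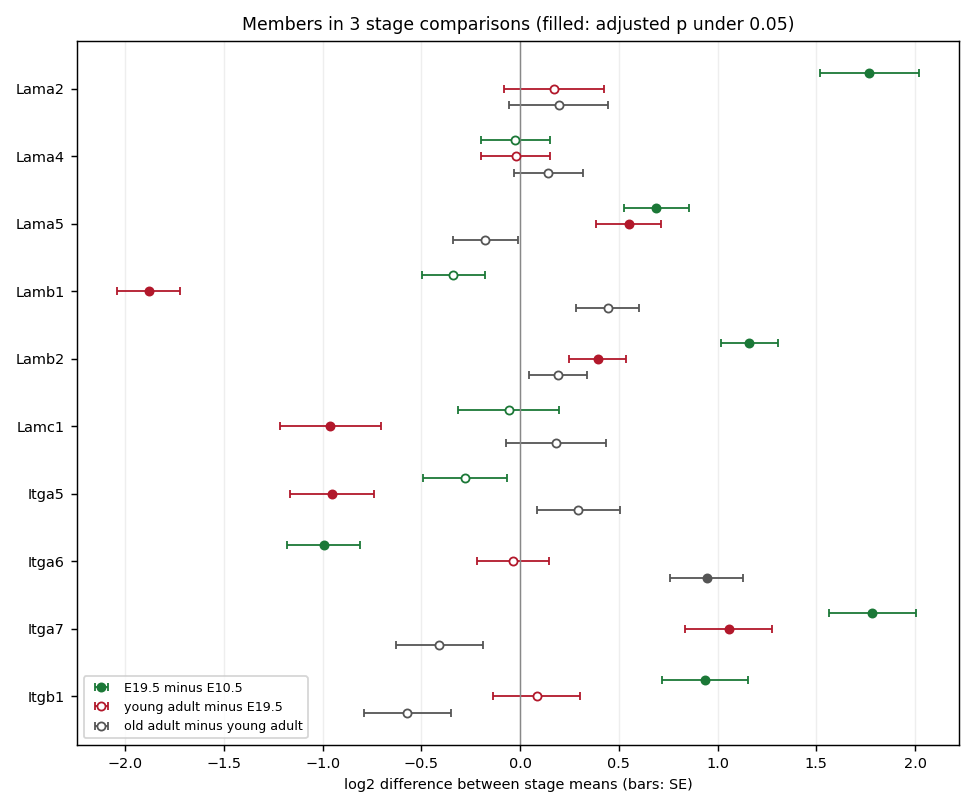
Differences between stage means of the 10 members in 3 comparisons, on the log2 scale with SE bars; filled points passed an adjusted p of 0.05. The 5 filled green points to the right of zero are Lama2, Lama5, Lamb2, Itga7 and Itgb1, and the filled red point farthest to the left is Lamb1 at -1.88.

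Lama2, the alpha chain of muscle basement membranes, rose early. Its 3 arrays read 5.48, 5.47 and 4.99 at E10.5, 6.70, 6.53 and 6.84 at E14.5, and 7.34, 7.34 and 6.57 at E19.5. The young adult arrays read 7.14, 6.98 and 7.65 and the old adult arrays 8.10, 6.71 and 7.54. Every array of E14.5 and of E19.5 lay above every array of E10.5, whereas E19.5, young and old adults overlapped. The gain was 1.38 ± 0.25 (SE) by E14.5 (adjusted p = 0.00013) and 1.77 ± 0.25 by E19.5 (adjusted p = 1.3e-06), a 3.41-fold increase. The further differences of 0.17 ± 0.25 to young adult (adjusted p = 0.66) and 0.19 ± 0.25 to old adult (adjusted p = 0.69) did not pass the test. With the hybridization control level as a covariate, the difference between young adult and E19.5 was 0.79 with an adjusted p of 0.018.

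Lamb2, the beta chain of mature muscle and synaptic laminin, rose over the same days. Its arrays read 5.58, 5.63 and 5.62 at E10.5, 6.57, 6.39 and 6.45 at E14.5, 6.84, 6.64 and 6.83 at E19.5, 7.08, 7.03 and 7.38 in young adults and 7.70, 7.12 and 7.24 in old adults. The arrays of these stages formed 4 levels without overlap up to young adult, and only the adult stages overlapped. The increase was 0.86 ± 0.15 by E14.5 (adjusted p = 4.9e-05) and 1.16 ± 0.15 by E19.5 (adjusted p = 1.5e-07), and 8 of the 9 daily steps of its mean were upward. The step of 0.39 ± 0.15 to young adult was near the limit (adjusted p = 0.041). It lost its call without E19.5 replicate 1 (0.43), replicate 2 (0.33) or replicate 3 (0.42), without young adult replicate 3 (0.28), with the hybridization covariate (0.44, adjusted p = 0.067), in a model of the 2 stages alone (adjusted p = 0.18) and with a trended, robust prior (adjusted p = 0.059).

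Lama5, the alpha chain typical of vascular and epithelial basement membranes, rose more slowly. It went from 6.04, 6.23 and 6.15 at E10.5 to 6.57, 6.92 and 6.997 at E19.5 and to 7.35, 7.52 and 7.27 in young adults, with no overlap between these 3 stages. The difference was 0.69 ± 0.16 at E19.5 (adjusted p = 0.0011) and a further 0.55 ± 0.16 in young adults (adjusted p = 0.011). Its second probe set differed by 0.55 ± 0.14 in the first comparison (adjusted p = 0.0019) and by 0.04 ± 0.14 in the second (adjusted p = 0.85). Both calls were lost with the hybridization covariate, at 0.17 (adjusted p = 0.63) and 0.13 (adjusted p = 0.60), and the second also without E19.5 replicate 1 (0.42) or young adult replicate 2 (0.48), with the mean of both probe sets (0.30, adjusted p = 0.064) and in a model of the 2 stages alone (adjusted p = 0.065). Between E14.5 and E10.5 the read probe set differed by 0.39 (adjusted p = 0.077), and passed without the 3 late mixed arrays (adjusted p = 0.039).

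Lama2 and Lamb2 had the second most alike profiles of all 45 pairs of members (Pearson r = 0.957 over 12 stage means), so the sequence around their transcription starts is shown. RefSeq promoter windows, 250 bases before to 50 after the start on GRCm38.p6, were at hand for 6 of the 10 members: Lama2, Lama5, Lamb1, Lamb2, Itga5 and Itgb1. The windows below are those of Lama2 (chr10:27616893-27617192, minus strand) and Lamb2 (chr9:108479612-108479911, plus strand), with each GC box (GGGCGG or its reverse complement CCGCCC) in capitals.
Lama2: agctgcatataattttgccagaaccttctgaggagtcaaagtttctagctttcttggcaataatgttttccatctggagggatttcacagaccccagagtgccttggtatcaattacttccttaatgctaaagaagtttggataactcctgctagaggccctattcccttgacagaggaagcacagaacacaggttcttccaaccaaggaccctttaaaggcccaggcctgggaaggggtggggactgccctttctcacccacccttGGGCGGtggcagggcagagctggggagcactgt
Lamb2: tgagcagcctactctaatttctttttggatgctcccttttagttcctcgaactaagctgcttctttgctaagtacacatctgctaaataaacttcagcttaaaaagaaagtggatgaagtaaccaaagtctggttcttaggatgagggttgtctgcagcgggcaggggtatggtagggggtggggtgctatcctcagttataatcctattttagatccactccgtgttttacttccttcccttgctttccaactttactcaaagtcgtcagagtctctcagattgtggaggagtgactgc
The Lama2 window held 1 GC box and the Lamb2 window 0, and neither held CCAAT or TATAAA on either strand. GC made up 50.3% and 44.0% of them, against a median of 52.7% over 32851 windows, of which 35.7% held a GC box, 37.4% CCAAT and 13.6% TATAAA.

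Lamb1, the beta chain of embryonic laminin, fell after birth on all 4 of its probe sets. The one read carries the suffix _s, which marks probes shared by several transcripts. Its arrays read 9.94, 10.09 and 10.04 at E10.5, 9.93, 9.75 and 9.37 at E19.5, 7.91, 7.72 and 7.78 in young adults and 8.39, 8.58 and 7.77 in old adults. All 6 adult arrays lay below all 30 embryonic arrays. The fall from E19.5 to young adult was -1.88 ± 0.16 (adjusted p = 7.3e-11), a 3.69-fold decrease, and the other 3 fell by 1.95, 1.77 and 0.69. Before birth the read probe set differed by -0.34 ± 0.16 (adjusted p = 0.080), while a pair of others fell by 1.12 (adjusted p = 0.00050) and 1.18 (adjusted p = 0.00013). The fourth, 1446180_at, differed by 0.24 ± 0.19 at E19.5 (adjusted p = 0.30) and was higher by 0.55 ± 0.19 at E14.5 (adjusted p = 0.034). The read probe set passed, too, with the sex label as a block (-0.40, adjusted p = 0.048) and without E19.5 replicate 1 (-0.46, adjusted p = 0.029). The rise of 0.44 ± 0.16 to old adult did not pass (adjusted p = 0.084), but did without old adult replicate 3 (0.68, adjusted p = 0.0046) and without the 3 late mixed arrays (adjusted p = 0.034). The window at its start (chr12:31265043-31265342, plus strand) is shown as was that of the other beta chain, again with GC boxes in capitals.
Lamb1: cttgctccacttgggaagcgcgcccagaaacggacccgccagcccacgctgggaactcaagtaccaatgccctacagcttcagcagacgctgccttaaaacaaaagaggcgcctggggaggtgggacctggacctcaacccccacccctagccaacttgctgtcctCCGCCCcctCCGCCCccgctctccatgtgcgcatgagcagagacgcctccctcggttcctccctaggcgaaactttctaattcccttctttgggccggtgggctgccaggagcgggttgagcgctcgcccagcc
It held 2 GC boxes and 1 CCAAT at 63.7% GC. Of the 6 windows at hand 5 held a GC box, among them that of Lama5, which rose, with 4 at 72.7% GC. The windows of Itga5 and Itgb1 held 2 and 1. A match of these letters is a description of a window and was not tied to any change.

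Lamc1, the gamma chain shared by these trimers, passed no test before birth in the reported model and was lower after it. With the hybridization covariate it differed by 0.90 between E14.5 and E10.5 (adjusted p = 0.020). At E10.5 its arrays read 7.70, 7.87 and 7.81, at E19.5 8.10, 7.70 and 7.39, in young adults 6.82, 6.47 and 7.02, and in old adults 7.40, 6.91 and 6.55. The highest young adult array lay below the lowest E19.5 array, by a margin smaller than the spread of E19.5. The difference between young adult and E19.5 was -0.96 ± 0.25 (adjusted p = 0.0042) and -1.13 without the E19.5 mixed array and those of E17.5 and E18.5 (adjusted p = 4.8e-05). On these 3 mixed arrays it read 6.73, 7.10 and 7.39, against 7.70 to 8.15 on the other 6. With the hybridization covariate the difference was -0.32 (adjusted p = 0.38), and its second probe set gave -0.62 ± 0.27 (adjusted p = 0.082) here and -0.98 ± 0.27 between old and young adults (adjusted p = 0.024).

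Lama4, the alpha chain of capillary basement membranes, was read differently by its 2 probe sets. The brighter one, 1424807_at, stayed between stage means of 8.29 and 8.61 and passed in none of 6 comparisons. The other, 1424808_at, read 5.70, 5.72 and 6.07 at E10.5, 7.27, 7.02 and 6.57 at E14.5, 6.19, 5.88 and 6.61 at E19.5, 5.87, 5.36 and 4.03 in young adults and 3.10, 4.25 and 3.29 in old adults. It thus rose by 1.12 ± 0.30 to E14.5 (adjusted p = 0.0055) and fell by 1.14 from E19.5 to young adult (adjusted p = 0.0040) and by 1.54 from young to old adult (adjusted p = 0.0018), where the arrays overlapped. The direction of Lama4 therefore depends on the probe set, and under quantile renormalization the brighter probe set itself gave 0.39 at E19.5 against E10.5 (adjusted p = 0.027).

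**Figure D2:**
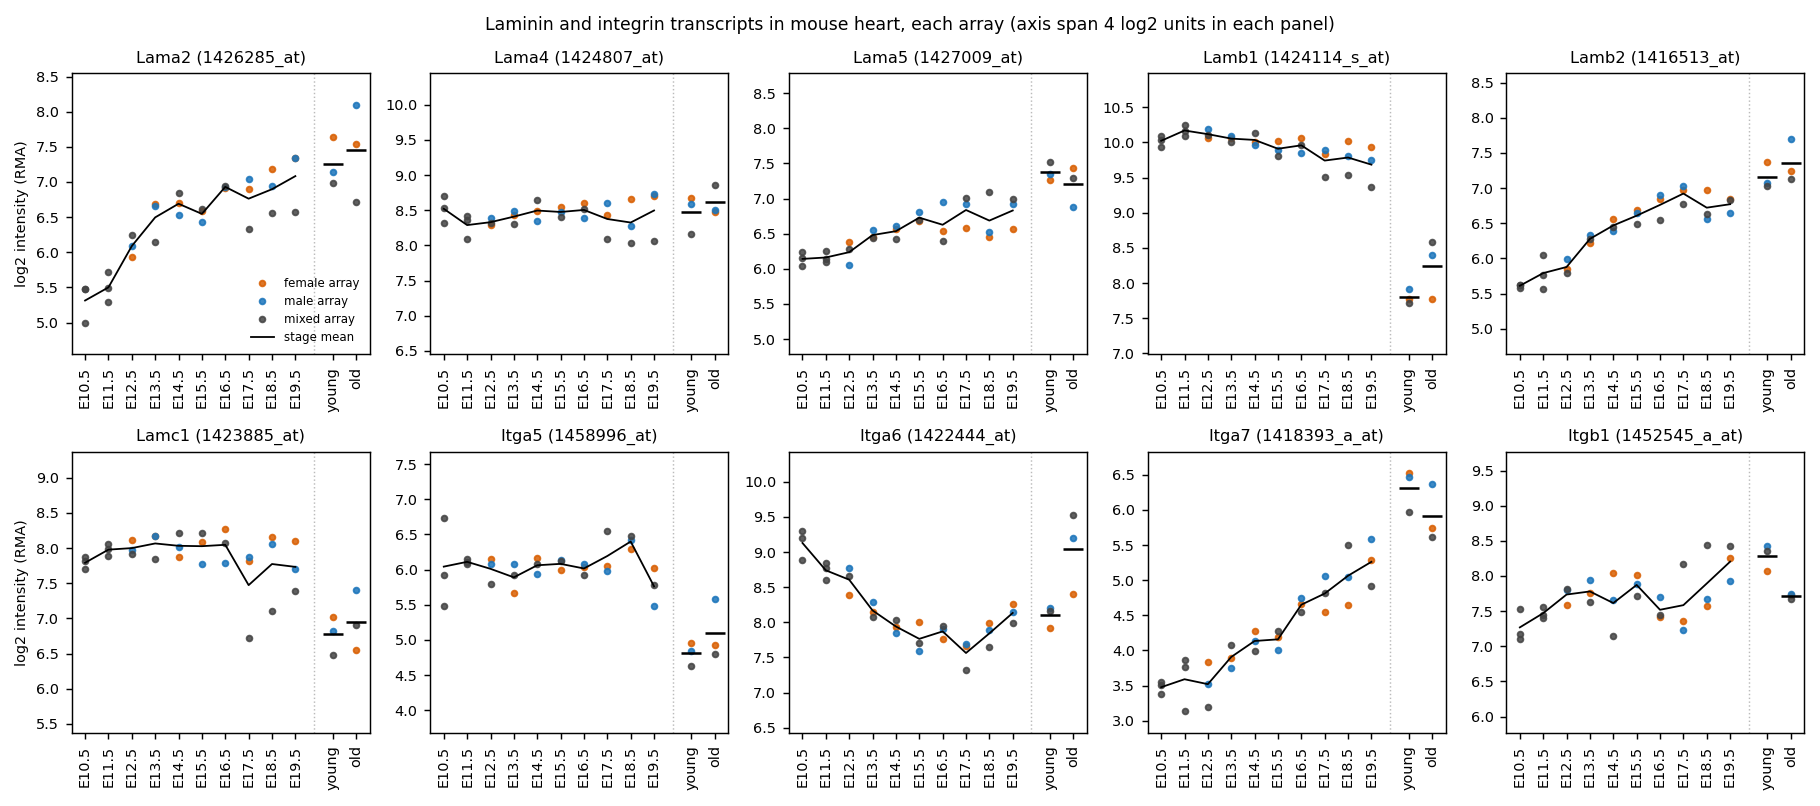
Log2 intensity on each of the 36 arrays for the 10 members, by stage and coloured by the sex label, with the stage mean as a line before birth and as a bar in adults; each panel spans 4 log2 units. Lama2, Lamb2 and Itga7 climb through the embryonic days, Lamb1, Lamc1 and Itga5 lie lower in both adult groups, and Itga6 falls and is high again in old adults.

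Among the receptors, Itga7, the laminin-binding alpha subunit of differentiated muscle, changed most. Its arrays read 3.51, 3.38 and 3.55 at E10.5, 4.27, 4.14 and 3.99 at E14.5, 5.29, 5.58 and 4.92 at E19.5, 6.46, 5.97 and 6.52 in young adults and 6.37, 5.61 and 5.74 in old adults. These groups did not overlap up to young adult, and the stage mean was under 5 until it reached 5.06 at E18.5. It rose by 0.66 ± 0.22 to E14.5 (adjusted p = 0.025), by 1.13 ± 0.22 from E14.5 to E19.5 (adjusted p = 0.00049) and by 1.06 ± 0.22 to young adult (adjusted p = 0.00037). The first of these steps lost its call without E10.5 replicate 1 (0.67) or 2 (0.61), without E14.5 replicate 1 (0.59) or 2 (0.65), with the hybridization covariate (0.36), the sex label as a block (0.58, adjusted p = 0.059) and quantile renormalization (0.52, adjusted p = 0.077). From E14.5 to E19.5 it was the only member called with the highest-mean probe sets, where 6.08% of all genes were higher and 10.3% lower; from E10.5 to E14.5 the called members were Lama2, Lamb2 and Itga7 (higher) and Itga6 (lower), against 12.5% and 15.7% of all genes.

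Itga6, the laminin-binding alpha subunit of endothelium and epithelia, fell where Itga7 rose, from E10.5 to E14.5, and was high again in old adults. Its arrays read 9.31, 9.20 and 8.88 at E10.5, 7.93, 7.85 and 8.04 at E14.5, 8.27, 8.14 and 7.99 at E19.5, 8.21, 8.17 and 7.92 in young adults and 9.19, 9.53 and 8.40 in old adults. Every E10.5 array lay above those of E14.5 and E19.5, and every old adult array above every young adult array. The fall was -1.19 ± 0.18 by E14.5 (adjusted p = 1.5e-05), with the lowest mean, 7.56, at E17.5, and the rise from young to old adult was 0.95 ± 0.18 (adjusted p = 0.0018). Its second probe set gave -1.45 ± 0.21 between E19.5 and E10.5 (adjusted p = 1.9e-06) and 0.93 ± 0.21 between old and young adults (adjusted p = 0.0071). In a model of the 2 adult stages alone the same 0.95 had an adjusted p of 0.18. Beside this rise, 2 of 6 endothelial markers were higher in old adults, Pecam1 by 1.19 ± 0.30 (adjusted p = 0.014) and Kdr by 0.81 ± 0.18 (adjusted p = 0.0072), and the mean of the 6 read 7.47 to 8.16 in old against 6.996 to 7.16 in young adults; their part in it was not tested. Of 4 leukocyte markers 1 was called, Ptprc, higher by 2.00 ± 0.32 (adjusted p = 0.00029), and the other 3 did not pass. The mean of the 4 was 7.39 to 8.13 against 6.796 to 7.15, and their median difference 0.27. In the same comparison 2 of 5 cardiomyocyte markers (Myh7 and Ryr2) and 1 of 5 epicardium markers were higher. Lower were 2 of 6 fibroblast and 2 of 5 smooth muscle and pericyte markers. The part of these markers was not tested either.

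Itga5, the alpha subunit of the fibronectin receptor, passed no test before birth with all arrays (without E10.5 replicate 1 it differed by -0.56 at E19.5 against E10.5, adjusted p = 0.038) and was lower in young adults. It read 6.02, 5.49 and 5.78 at E19.5, 4.85, 4.63 and 4.95 in young adults and 5.58, 4.80 and 4.93 in old adults. The young adult arrays lay below all E19.5 arrays, but 1 old adult array lay among the latter. The difference between young adult and E19.5 was -0.95 ± 0.21 (adjusted p = 0.00077). Its 3 other probe sets stayed under a stage mean of 5, and 1 of them, 1423267_s_at, also fell, by 0.91 (adjusted p = 4.3e-05).

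Itgb1, the beta subunit of all 3 receptors, had 7 probe sets, of which 2 reached a stage mean of 5, and these moved in opposite directions. The probe set 1452545_a_at read 7.17, 7.53 and 7.10 at E10.5 and 8.26, 7.93 and 8.43 at E19.5, a rise of 0.93 ± 0.22 (adjusted p = 0.00087). The probe set 1426918_at read 8.37, 8.72 and 7.63 at E10.5 and 7.38, 7.28 and 6.22 at E19.5, a fall of 1.28 (adjusted p = 0.0033), with its lowest mean, 6.16, at E15.5. On both, the arrays of the 2 stages did not overlap. The suffix _a marks a probe set designed on several transcripts of 1 gene. The mean of all 7 probe sets differed by 0.19 (adjusted p = 0.078) and the hybridization covariate left 0.46 (adjusted p = 0.28), so no single direction can be given for Itgb1. Between old and young adults 1452545_a_at differed by -0.57 (adjusted p = 0.11), and passed without the 3 late mixed arrays (adjusted p = 0.023). There 1426918_at differed by 0.28 (adjusted p = 0.67).

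**Figure D3:**
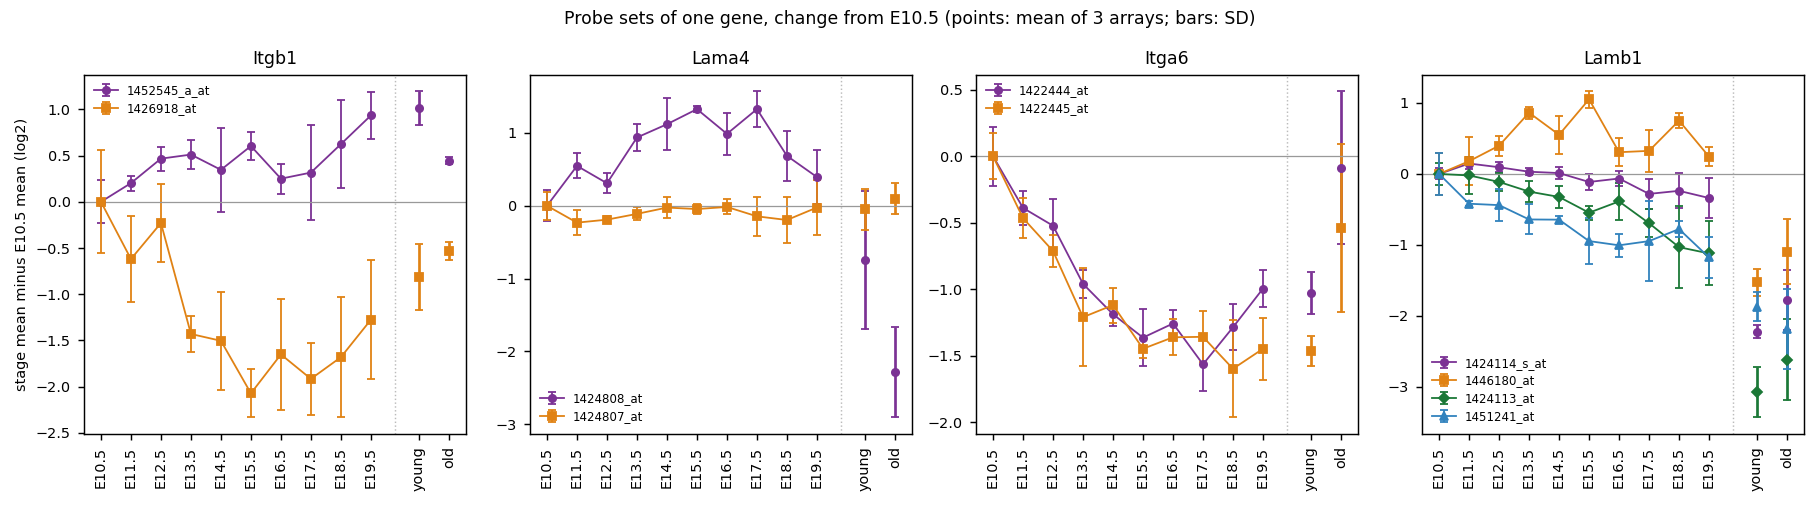
Change from the E10.5 mean (log2) of each probe set with a stage mean above 5 for Itgb1, Lama4, Itga6 and Lamb1; points are means of 3 arrays and bars their SD. The 2 probe sets of Itga6 run together, those of Itgb1 and Lama4 part, and all 4 of Lamb1 are lowest in adults.

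By the study's own limits (adjusted p under 1e-05, an absolute log2 difference above 2 and a stage mean above 5), 2 members differed between young adult and E10.5. Itga7 was higher by 2.84 ± 0.22 (adjusted p = 1.9e-12) and Lamb1 lower, at -2.22 ± 0.16 (adjusted p = 3.2e-13), where 2.64% of all genes were higher and 5.14% lower. Lama2 came close at 1.94 ± 0.25 (adjusted p = 1e-07). With the hybridization covariate Lama2 alone passed, at 3.33 (adjusted p = 1.3e-07), since Itga7 then had 2.19 (adjusted p = 0.00011) and Lamb1 -1.72 (adjusted p = 3.2e-05). Under that covariate Lamc1, at -1.02 ± 0.25 without it (adjusted p = 0.0010), read 0.42 (adjusted p = 0.52).

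To ask whether alternative laminin chains or alternative integrin alpha subunits changed by unequal amounts, the difference of both genes was taken on each array. It cancels any shift common to both. Lamb2 minus Lamb1 was -4.40 ± 0.20 (SD, n = 6) at E10.5 and E11.5, -2.99 ± 0.24 at E18.5 and E19.5 and -0.77 ± 0.37 in adults. The 3 groups did not overlap, and both shifts, 1.41 and 2.22, had the smallest p that 924 splits allow (exact two-sided permutation test, p = 0.00216, adjusted over the 8 tests p = 0.00289). Between single stages, which are not the joined groups of these shifts, E19.5 minus E10.5 was 1.16 for Lamb2 and -0.34 for Lamb1. Young adult minus E19.5 was 0.39 for Lamb2 and -1.88 for Lamb1. Lama2 minus Lama4 shifted by 1.58 before birth (exact p = 0.00216, adjusted p = 0.00289), from -3.00 ± 0.26 to -1.42 ± 0.07. The later shift of 0.23 did not pass (exact p = 0.396, adjusted p = 0.396), but was 0.42 without old adult replicate 2 (adjusted p = 0.00989), and read on the probe sets of highest SD it was 2.42 (adjusted p = 0.00577).

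The receptor differences shifted too, but their size is uncertain: the early stage means of Itga7, 3.48 and 3.59, lay under the median of every array, and the table gives no detection call. Itga7 minus Itga5 went from -2.54 ± 0.46 (SD, n = 6) early to -0.92 ± 0.60 in late fetal and 1.16 ± 0.40 in adult hearts, by 1.62 and 2.07 (exact p = 0.00216 and adjusted p = 0.00289 for both), and the groups did not overlap. Itga7 minus Itga6 went from -5.40 ± 0.45 to -2.83 ± 0.42, by 2.57 (exact p = 0.00216, adjusted p = 0.00289). Its adult value of -2.46 ± 0.89, young and old adults joined, overlapped the late fetal one, and the shift of 0.37 did not pass (exact p = 0.387, adjusted p = 0.396). From E19.5 to young adult, Itga7 differed by 1.06 and Itga6 by -0.04. From young to old adult they differed by -0.41 and 0.95. The joined adult group therefore cannot show whether the difference shifted in young adults alone.

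**Figure D4:**
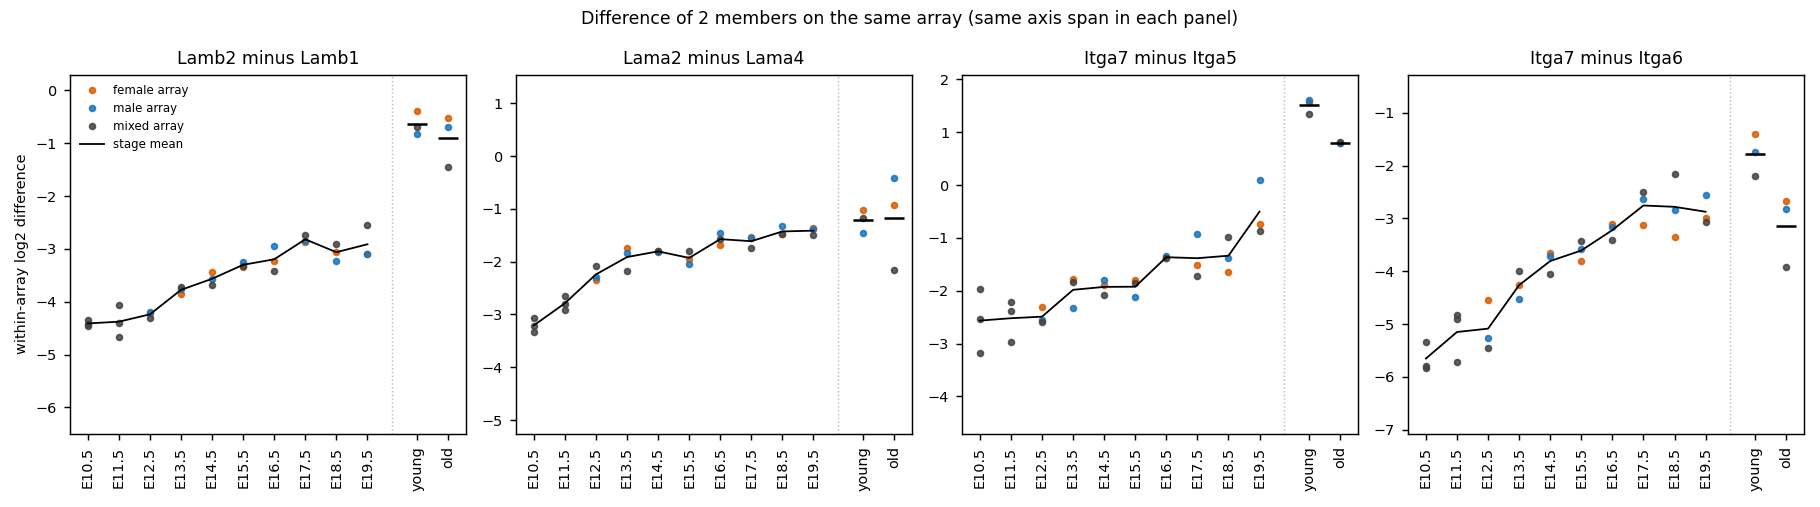
Difference of the log2 values of 2 members on the same array, for each array by stage, coloured by the sex label, with the stage mean; all panels span the same range. Lamb2 minus Lamb1 rises from -4.40 early to -0.77 in adults with most of the gap between E19.5 and young adult. Lama2 minus Lama4, on the probe sets read, shifts before birth, and its later shift did not pass. With the probe sets of highest SD its adult shift was 2.42.

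By Pearson r over the 12 stage means, 7 of the 10 members are described here as 2 groups of like profile. The other 3 joined neither, with a highest r to any member of 0.681 for Itgb1, 0.472 for Lama4 and 0.218 for Itga6. No limit on r was set, and the lowest r within the groups was 0.870 (Lama2 and Itga7) and 0.827 (Lamc1 and Itga5). The share of all gene pairs with such r was not computed, and genes outside the family reached higher r. The likeness is therefore not shown to be particular to the members. Lama5 and Itga7 had 0.958, Lama2 and Lamb2 0.957 and Lama5 and Lamb2 0.950, and on the other side Lamb1 and Lamc1 had 0.955 and Lamb1 and Itga5 0.919. Among genes with a stage mean above 5, the profile most like Itga7 was that of Cox6a2, the muscle form of a cytochrome oxidase subunit (0.994), followed by Myh11, the smooth muscle myosin heavy chain (0.994), and Htra3 (0.993). Nearest to Lama2 were S100a16 (0.983), the caveolar protein Cav1 (0.981) and Naalad2 (0.980), and nearest to Lamb2 were Echdc2 (0.991), the endothelial receptor Robo4 (0.988) and Vsig2 (0.985). Lama5 was nearest to Map4 (0.988), Tcea3 (0.987) and Cmah (0.986). Lamb1 was nearest to Zbed6 (0.997), the imprinted zinc finger gene Plagl1 (0.996) and Spsb4 (0.995), and Lamc1 to D1Ertd564e, Zfp799 and Stx6 (each 0.986). Itga5 was nearest to AA407107 (0.982), Dyrk2 (0.975) and Socs7 (0.969), and Itga6 to Wsb2 (0.977), the kinase Rock2 (0.974) and Ylpm1 (0.967). For Itgb1 (Zfp787, 0.921; Phf7, 0.902; 4933427D06Rik, 0.898) and Lama4 (Polk, 0.825; Slc23a2, 0.803; Trub2, 0.796) the likeness was lower, and it holds for the read probe set alone.

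Markers of several cell types moved over the same stages. The arrays do not show which of these cells express the members. The shares of all genes called in these comparisons are those given above for the members. Between E10.5 and E19.5, 3 of 5 smooth muscle and pericyte markers rose (Rgs5 by 4.22 ± 0.23, adjusted p = 3e-15, Myh11 by 3.29 ± 0.26, adjusted p = 1.4e-11, and Pdgfrb by 2.30 ± 0.19, adjusted p = 3.9e-11) and 2 fell (Cnn1 by 2.87, adjusted p = 1e-07, and Tagln by 2.35, adjusted p = 1.2e-06). The mean of the 5 read 6.5998 to 6.74 at E10.5, 7.19 to 7.80 at E19.5, 8.54 to 8.9999 in young and 8.16 to 8.32 in old adults. Of 6 fibroblast markers 4 rose before birth (Col1a1, Col1a2, Col3a1 and Dcn) and Pdgfra fell by 0.92 (adjusted p = 0.0024). After birth 4 fell (Col1a1, Col1a2, Col3a1 and Tcf21) and Dcn rose by 1.98 ± 0.19 (adjusted p = 1.9e-09). Col1a1 had 3.17 ± 0.21 (adjusted p = 1.8e-13) and then -3.33 ± 0.21 (adjusted p = 6.6e-14), the mean of the list going from 8.21 to 8.50 at E10.5, through 9.77 to 10.01 at E19.5, to 8.94 to 9.57 in young adults. Of 6 endothelial markers, Cdh5 rose before birth by 1.02 ± 0.22 (adjusted p = 0.00045) and Kdr by 1.11 ± 0.18 (adjusted p = 1.4e-05), while Tek fell by 0.99 (adjusted p = 0.017). After birth Pecam1 rose by 1.4998 ± 0.30 (adjusted p = 0.00022) and Emcn by 1.80 ± 0.30 (adjusted p = 1.5e-05), and the mean of the 6 read 5.84 to 6.52 at E10.5 and 5.99 to 6.73 at E19.5. Of 4 leukocyte markers 2 rose before birth and all 4 after it, Lyz2 by 4.34 ± 0.21 (adjusted p = 1.9e-16), with a mean of 3.69 to 3.84 at E10.5 and 4.87 to 5.07 at E19.5. Of 5 erythroid markers 4 fell before birth, the mean of the list going from 9.12 to 9.82 at E10.5 to 3.75 to 3.96 at E19.5. Of 5 epicardium markers 1 rose and 3 fell before birth, and 1 fell after it. Of 5 measured cardiomyocyte markers Tnnt2 and Ryr2 rose and Actc1 fell before birth. In young adults Myh7 (-1.78), Ryr2 (-1.16), Actc1 (-0.98) and Tnnt2 (-0.42) were lower, while Myl2 (-0.26) did not pass. The study itself describes Actc1 and Myh7 as low in adult hearts, and Myh6 was not analysed. This list therefore cannot tell fewer cardiomyocytes from less RNA of these genes. The part of these shifts in the members' changes was not tested.

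Of 13 other integrin subunits measured, 9 reached a stage mean of 5, and over all 13 there were 5 higher and 4 lower at E19.5 than at E10.5. Over all genes 26.2% were higher and 23.6% lower. Itga4, which pairs with Itgb1 to bind fibronectin and vascular cell adhesion molecule, fell by 1.98 (adjusted p = 5.2e-10), Itgb8 by 1.57 (adjusted p = 0.0019) and Itgav, the vitronectin receptor subunit, by 1.05 (adjusted p = 0.0025). Itga8, a nephronectin receptor subunit, rose by 1.95 ± 0.41 (adjusted p = 0.00031) and was lower again in old than young adults, at -1.61 ± 0.41 (adjusted p = 0.016). The collagen-binding Itga1 rose by 1.07 ± 0.16 (adjusted p = 2.5e-06), Itgb5, read by a probe set whose suffix _x warns of cross-hybridization, by 0.91 ± 0.17 (adjusted p = 6.9e-05) and Itga10 by 0.71 ± 0.18 (adjusted p = 0.0023). After birth 2 of the 13 fell and none rose, against 17.0% lower and 14.7% higher over all genes. Of those above 5 Itga9 differed, at -0.85 ± 0.20 (adjusted p = 0.0012).

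Of 12 other basement membrane genes, 10 had a stage mean above 5. Before birth 6 of the 12 rose and 3 fell, against 26.2% and 23.6% of all genes. Their median difference was 0.48, against 0.16 over all genes and -0.21 over genes above 5. From E19.5 to young adult 2 rose and 4 fell, against 14.7% and 17.0% of all genes. Col15a1, a collagen of the muscle and capillary basement membrane zone, rose by 1.90 ± 0.16 (adjusted p = 1.1e-10) and Hspg2, perlecan, by 1.87 ± 0.16 (adjusted p = 9.8e-11), and neither changed after birth. The network collagens Col4a1 and Col4a2 rose by 1.09 ± 0.24 (adjusted p = 0.00045) and 0.92 ± 0.26 (adjusted p = 0.0042), and Col4a4 rose in both comparisons, by 1.46 ± 0.29 (adjusted p = 0.00013) and 1.91 ± 0.29 (adjusted p = 4e-06). Nid2, a nidogen that links laminin to collagen IV, fell in both, by 1.35 (adjusted p = 0.00013) and 1.23 (adjusted p = 0.00058), as did Col18a1, by 1.00 (adjusted p = 0.00013) and 1.54 (adjusted p = 2.4e-07). Agrn, agrin, rose by 0.39 ± 0.14 (adjusted p = 0.025) and then fell by 0.66 (adjusted p = 0.00053), and Col4a5 fell after birth by 1.46 (adjusted p = 0.00015).

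Among 5 other integrin ligands, fibronectin (Fn1) fell by 1.61 before birth (adjusted p = 8.4e-05) and by 0.86 after it (adjusted p = 0.034), and tenascin C (Tnc) by 1.13 (adjusted p = 0.00011) and 2.51 (adjusted p = 1.4e-10). Nephronectin (Npnt) fell by 2.78 (adjusted p = 3.3e-09) and then rose by 1.16 ± 0.28 (adjusted p = 0.0021). Vitronectin (Vtn) rose in 3 comparisons, by 0.84 ± 0.26 (adjusted p = 0.0089), 1.25 ± 0.26 (adjusted p = 0.00031) and, from young to old adult, 0.93 ± 0.26 (adjusted p = 0.024). Of 5 further laminin receptors and partners, the syndecan Sdc4 rose before birth by 1.20 ± 0.17 (adjusted p = 1.7e-06), Sdc1 fell in both comparisons, by 0.76 (adjusted p = 0.0013) and 0.81 (adjusted p = 0.0011), and the tetraspanin Cd151, a partner of laminin-binding integrins, rose after birth by 0.80 ± 0.20 (adjusted p = 0.0025). Dystroglycan (Dag1), the receptor of Lama2 outside the integrins, differed by -0.30 ± 0.19 (adjusted p = 0.21) and 0.39 ± 0.19 (adjusted p = 0.14).

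Inside the cell, 4 of 16 adhesion complex genes rose and 3 fell before birth, and 3 rose and 4 fell after it. Over all genes 26.2% rose and 23.6% fell before birth, and 14.7% rose and 17.0% fell after it. These counts were not tested against those shares. The adaptor Lims2 rose by 3.01 ± 0.16 (adjusted p = 1.2e-15) and by a further 1.51 ± 0.16 (adjusted p = 7.1e-09), while its paralogue Lims1 differed by -0.12 ± 0.13 before birth (adjusted p = 0.46) and fell by 1.10 after it (adjusted p = 9e-08). Tns1, tensin, rose by 1.99 ± 0.14 (adjusted p = 6.6e-13), Itgb1bp2 (melusin, a muscle protein that binds the tail of Itgb1) by 1.16 ± 0.18 (adjusted p = 6.7e-06) and paxillin (Pxn) by 1.14 ± 0.15 (adjusted p = 2.1e-07). Vinculin (Vcl) fell by 1.07 (adjusted p = 0.00067) and Parva by 0.59 (adjusted p = 0.017), and zyxin (Zyx) fell by 0.50 (adjusted p = 0.030) and then rose by 0.63 ± 0.19 (adjusted p = 0.011). After birth the talins Tln1 and Tln2 fell by 0.79 (adjusted p = 0.0034) and 1.12 (adjusted p = 6.3e-06) and Bcar1 by 1.17 (adjusted p = 8.3e-07), whereas Itgb1bp1 rose by 1.61 ± 0.26 (adjusted p = 9.4e-06). The core members Ilk, Ptk2, Fermt2 and Parvb passed in neither comparison.

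**Figure D5:**
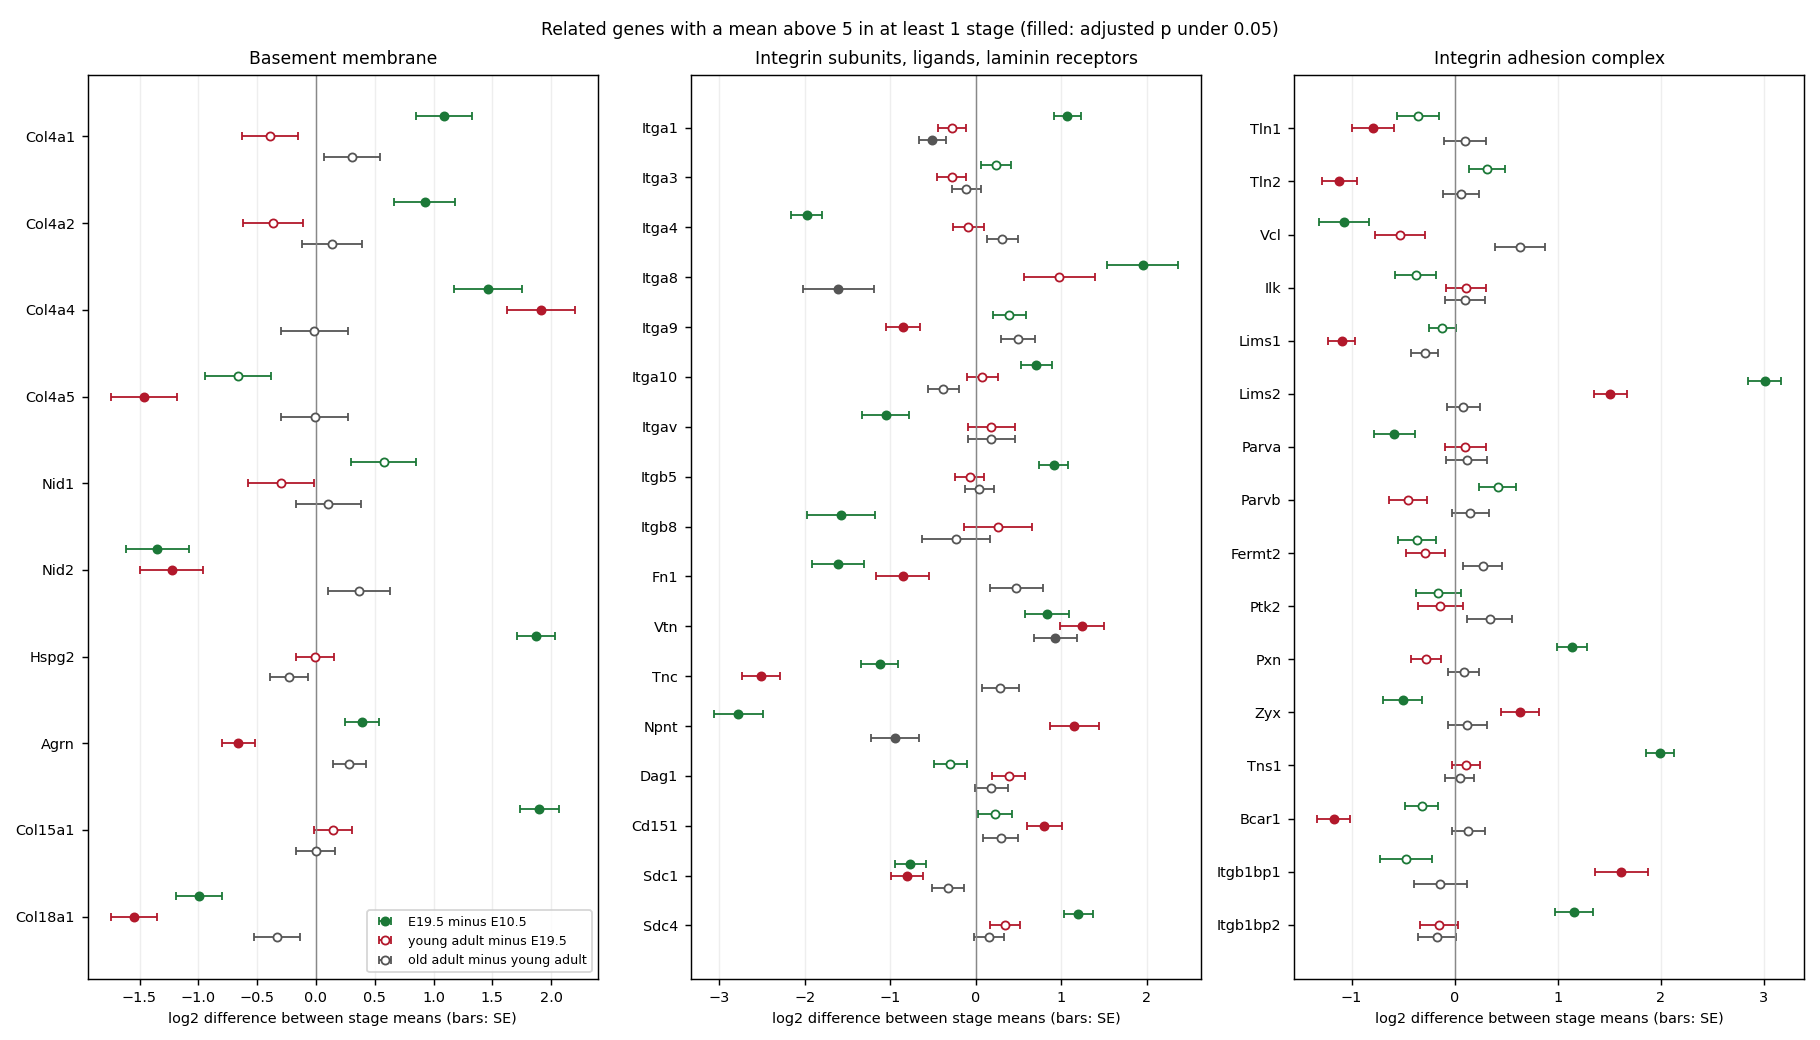
Differences between stage means (log2, SE bars) of the related genes with a stage mean above 5, in the same 3 comparisons; filled points passed an adjusted p of 0.05. Lims2 stands farthest to the right at 3.01, Npnt and Tnc farthest to the left at -2.78 and -2.51.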

How the data were processed

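Heart RNA was hybridized to Affymetrix Mouse430 2.0 arrays. The deposited table holds log2 intensities that the authors made by robust multi-array average (RMA: background correction, quantile normalization and summary per probe set); the submitters' processing notes name Affymetrix Expression Console, RMA and Partek 6.6. The values were used as deposited. Samples were grouped by the labelled stage. A model with 12 stage means was fitted to 36 arrays and 45101 probe sets with limma 3.58.1 in R 4.3.3, with Benjamini-Hochberg adjustment within each comparison. Genes were named by the table's symbols and GeneIDs (RefSeq, GRCm38.p6, where a symbol was damaged); 6937 probe sets without a GeneID were tested but not counted as genes. Pair differences were tested by exact two-sided permutation. Tested on simulated data for E19.5 minus E10.5 (45101 probe sets), the model recovered 84 of 100 differences of 1 and 98 of 100 of 2, with 10 false calls. The simulated noise was independent and only these probe sets were changed. In the data 26.2% of genes were called higher and 23.6% lower, so these rates need not hold there. The number of arrays limits the precision, and nothing shows whether replicates came from separate litters. The format of the sample titles changes within E16.5, between its male and mixed arrays and its female array; whether this marks a batch is not given in the sources used here, and no model with it was fitted. Named were all members, related genes above 5 that changed from E10.5 to E19.5 or to young adult, and the 3 genes most like each member. Alternatives were other scaling, filters, probe set choices, covariates and left-out arrays. The members and lists were chosen with earlier results of these data known. Itga11, Myh6, Plin1 and Scgb1a1 were not analysed here.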

Additional observations from a re-analysis of the deposited data

How the results depend on the processing

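With a log2 limit of 1 added, 3 members were called for E19.5 minus E10.5, 2 for E14.5 minus E10.5, 2 for young adult minus E19.5 and 0 for old minus young adult, where limma without the limit called 1. For E19.5 minus E14.5 the count of 1 became 2 with quantile renormalization, the expression filter or the probe set of highest SD, 3 with median centring (arrays shifted by -0.31 to 0.32) or the mean of all probe sets, and 1 to 2 without 1 array (2 without E14.5 replicate 1). For old minus young adult the count of 1 became 3 with the probe set of highest SD or without the 3 late mixed arrays, 2 with the mean of all probe sets, 0 in a model of both stages alone, and 1 to 2 without 1 array (2 without old adult replicate 3). The count of 2 past the study's limits became 1 with the hybridization covariate and 9 with an adjusted p under 0.05 and a log2 limit of 1. Shares of all genes were not computed under these other settings and limits. The counts in this section therefore show dependence on the processing only, and not whether the members differ from other genes. Signs reversed for Itgb1 with the probe set of highest SD (-1.28 for E19.5 minus E10.5, -1.50 for E14.5 minus E10.5, -0.81 for young adult minus E10.5). They reversed for Lama4 with that probe set (1.12 for E14.5 minus E10.5, -1.54 for old minus young), the mean of probe sets (0.55 and -0.70), quantile renormalization (0.39 for E19.5 and 0.38 for young adult, each minus E10.5) and median centring (0.48 for young adult minus E10.5). For Lamc1 they reversed with the probe set of highest SD (-0.98, old minus young) and with the hybridization covariate (0.42, young adult minus E10.5). A further 70 sign changes, in 21 of the members' comparisons, concerned differences that passed under neither setting and were at most 0.57 in size in the reported model and 0.74 under the other setting; no direction is drawn from them. Lama2 minus Lama4 in adults became 1.32 with the mean of probe sets and 2.42 with the probe sets of highest SD, and 0.0724 to 0.42 without 1 array. With the outer stages alone (3 against 3 arrays, where the smallest exact p is 0.10) the pair shifts were 1.499, 2.27, 1.79, 2.06, 2.01 and 2.78 and could not pass. The causes were not tested. No paired analysis was possible because the stages compared share no replicate numbers in the labels; the sex label as a block changed the calls of Lamb1 (E19.5 minus E10.5), Lama5 and Itga7 (E14.5 minus E10.5) and of no other member.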
